A study of Mus musculus with 7 samples.

Results

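Antisense transcripts run across a known gene on the opposite DNA strand. The deposited merged set of transcripts gave 291 of its 54952 transcripts the class code x, which marks an assembled transcript placed opposite a known one, and these joined into 203 loci of 25100 merged loci in all. The loci lay opposite 192 sense genes, 96 on the plus and 107 on the minus strand, and 10 sense genes had 2 or more of them (21 loci together). Members were found from class code and position, with no threshold on expression, although a transcript enters the merged set only where the reads of these libraries let it be assembled.

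The 7 RNA sequencing libraries came from B cells of mice with the C57BL/6 genetic background, with no other allele or genotype named, and each stood for 1 condition. They were unstimulated at 0 h, or given anti-IgM (an antibody that binds the B cell antigen receptor), BAFF (a survival cytokine of B cells) or both agents for 8 h or 30 h. Every cultured library had a stimulus, and stimulus and time in culture therefore cannot be told apart against the unstimulated library. How many mice or cultures stand behind a library is not given in the labels. With 1 library per condition no test between conditions was possible, and every interval below covers counting error only. In bulk RNA, fewer cells of a type and less RNA per cell cannot be told apart.

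Antisense RNA is commonly divided by its position. Some starts near the promoter of the sense gene and runs away from it, some starts beyond its end and runs back over its last exons, and some starts inside its introns. Such RNA can overlap the messenger directly, pass through its promoter, or be a gene of its own that shares a few exon bases with a neighbour. Reading it requires the strand of each fragment. The labels name a TruSeq kit with poly-dT priming and do not state whether strand was kept, and strand in spliced alignments can come from the bases at intron ends alone. In reads without strand, sense and antisense RNA over the same bases cannot be told apart.

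Markers of other cell types differed between libraries. Of the 9 macrophage and monocyte markers found, of 10 listed, C1qa, C1qb, C1qc, Csf1r, Vcam1 and Cd14 were highest in the unstimulated library, with C1qa at 40.3 FPKM (fragments scaled to transcript length and library size, a level per length) against 0 to 5.08 elsewhere. The other 3 were not: Cd68 had 98.02 unstimulated and 321, 329 and 190 after 8 h of anti-IgM, 8 h of both and 30 h of both, Emr1 had 32.8 unstimulated and 48.2 with BAFF at 30 h, and Lyz2 had 16.3 unstimulated and 19.8 with BAFF at 30 h. Their sum was 331 unstimulated and ran from 25.4 with BAFF at 8 h to 342 with anti-IgM at 8 h, and 321 of the latter came from Cd68. The 6 B cell markers were all present and summed to 984 to 2796 FPKM. T cell markers summed to 14.9 to 95.4, of which Lck gave 14.9 and 93.8, while Cd3d, Cd3e and Thy1 were at 0 in every library. NK cell markers summed to 1.01 to 2.58 with 3 of 4 at 0 in every library, and all 4 neutrophil markers were at 0. The part of these cells in the antisense differences was not tested. Read coverage per FPKM, a measure of depth, lay between 1.89 (BAFF 8 h) and 2.89 (anti-IgM 8 h).

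The class code and the exons did not always match. Of the 291 transcripts, 204 overlapped an exon of the reference named beside them, 20 overlapped only an exon of another known transcript, and 67 overlapped no known exon of the merged set on the other strand. By locus, 158 of 203 shared bases with RefSeq exons of their sense gene and 45 did not, of which 40 still lay within the span of that gene. The name "antisense to known exons" therefore holds for most loci, and the remainder are better called transcripts opposite a known gene. Even where exons were shared the overlap was short: a median of 4.45% of a locus's exon bases lay in exons of the sense gene, and only 5 loci reached 50%.

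Spliced loci show their own strand through intron borders, so junctions of loci described below are printed first, with the last 15 bases of the upstream exon in lower case and the first 15 of the next exon in capitals. They are written 5' to 3' on the antisense strand from GENCODE M21 transcripts (build GRCm38, the mm10 of the labels), with the position of the intron. Each intron is known to GENCODE on the antisense strand.
Cpsf2 locus (Ndufb1-ps), chr12:101969638-101975659, minus strand, in 6 libraries: gtcaccaggctgaagCAGTCAAGATGACCT
Aim2 locus (Ifi206), chr1:173474053-173480370, minus strand, in 7 libraries: gcaacaccacccaagAAACCAAGACTGAAG
Fcamr locus (Gm15848), chr1:130817423-130818458, minus strand, in 6 libraries: gtccaccagaaagagGGCCAGATATCGATC
Ints2 locus (Brip1os), chr11:86201553-86206952, plus strand, in 7 libraries: ggattgttcgagcagGTTAAAAGGCCTGCA
Mypop locus (Mypopos), chr7:18997471-18998846, minus strand, in 6 libraries: attcattcgggttatGTAAGCTCTACCACC
Scaf8 locus (Gm21926), chr17:3112573-3113287, minus strand, in 4 libraries: gagctcaaaggccagGAAATCTTTTGAAAA
Slc36a3 locus (Slc36a3os), chr11:55137168-55139797, plus strand, in 6 libraries: ctttccagcctaaagGCATGGATACAGTGA

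The 203 loci held 284 introns, 84 of them identical to a GENCODE intron on the antisense strand and 0 identical to one on the sense strand. An intron was found in 2 or more libraries for 62 of the 84 and for 87 of the other 200. Bases at both ends could be read from known transcripts for 28 introns: 26 began with GT and ended with AG on the antisense strand, 2 began with AT and ended with AC, and 0 had the CT and AC that a sense-strand GT to AG intron would show when read backwards. Of the 200 introns outside GENCODE, 22 could be read at both ends, 20 as GT to AG and 2 as AT to AC. A further 91 introns could be read at 1 end, and 89 of these showed GT or AG. The A530072M11Rik and Sult2b1 loci each had 1 intron that ended with AC. AC alone does not tell an AT to AC intron from a sense intron read backwards. The strand call in spliced alignments can itself rest on these bases, which makes the match a description and not a second line of evidence.

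A second set shows loci with long stretches opposite coding exons, where the same bases code for protein on the sense strand and no intron is known to GENCODE. The first line of each pair is the antisense locus and the second the sense gene, both 5' to 3'.
Srsf5 locus, chr12:80946634-80946663, minus strand: gaatctttccacatctttctccctcgctgc
Srsf5 gene, same bases, plus strand: gcagcgagggagaaagatgtggaaagattc
Nfkbid locus, chr7:30424331-30424360, minus strand: aaagagccctctgtataggtagcatggatg
Nfkbid gene, same bases, plus strand: catccatgctacctatacagagggctcttt
Both windows lie wholly in coding sequence. The Srsf5 locus was a single exon of 4113 bases with 762 bases in Srsf5 exons, and the Nfkbid locus had 6926 exon bases, 1668 of them in Nfkbid exons.

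By structure the loci fell into 3 kinds. In 44 loci at least 1 intron matched GENCODE on the same strand, 73 were spliced through other introns only, and 86 were a single exon with no intron. These 86 have no intron border that could show their strand, so their place on the antisense strand rests on the deposited strand alone. GENCODE had a gene on the antisense strand over 68 loci, and its type was antisense for 31, protein coding for 11, processed transcript for 9 and lincRNA for 5. RefSeq (GRCm38.p6) had a gene whose span covered part of the locus on that strand for 76 loci, 36 of them with no GENCODE gene there. No known gene on their strand was found in either annotation for 99 loci, 60 single-exon and 39 spliced.

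Position separated the kinds. Of the 203 loci 127 lay inside the sense gene, 37 over its 5' end, 26 over its 3' end, and 13 spanned it. Single-exon loci were almost all internal (80 of 86), with a median of 95.4% of their bases in introns of the sense gene and 4.49% in its exons. Loci with a GENCODE intron were spread over all positions, 15 inside, 15 over the 5' end, 9 over the 3' end and 5 spanning. The highest sense FPKM had a median of 26.4 for single-exon loci, 12.3 for loci with other introns and 9.85 for loci with a GENCODE intron, beside 18.0 over all 11364 known loci assembled.

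**Figure D1:**
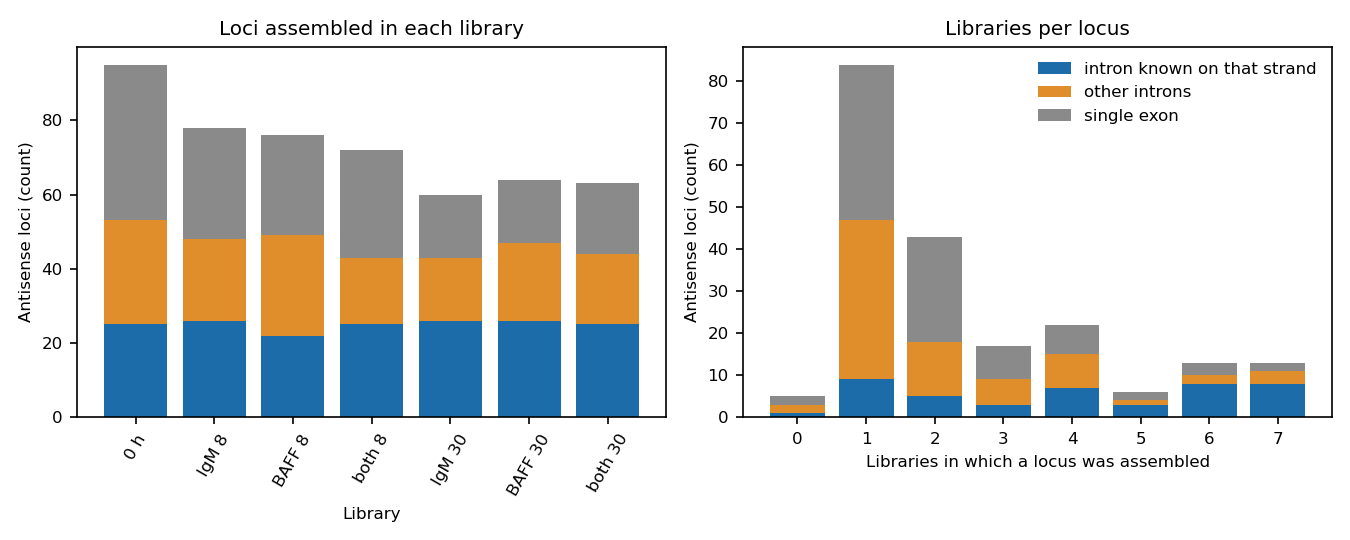
Antisense loci assembled in each library (left; IgM stands for anti-IgM, numbers are hours) and number of libraries in which each locus was assembled (right), as counts stacked by structure. Between 60 and 95 loci were assembled per library, the part with a known intron stayed between 22 and 26, and 84 of 203 loci were assembled in 1 library only.

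Most of these transcripts were assembled in few libraries. A locus had a level in a library when an assembled transcript of 300 bases or more overlapped its exons on the same strand by at least 50% of the shorter. By that rule 95 loci were present in the unstimulated library, 78, 76 and 72 after 8 h of anti-IgM, BAFF or both, and 60, 64 and 63 at 30 h. Only 13 loci (6.40%) were present in all 7 libraries, 84 (41.4%) in 1 and 5 in none. Presence in all 7 held for 7.17% of loci with only intergenic transcripts and for 37.2% of all merged loci. Presence in 1 library held for 45.5% and 6.51% of them. The loci with a GENCODE intron numbered 25, 26, 22, 25, 26, 26 and 25 in the same order, whereas single-exon loci numbered 42 in the unstimulated library, 27 to 30 at 8 h and 17 to 19 at 30 h. The unstimulated library alone held 24 loci (11.8%), 13 of them single exons, and 103 loci (50.7%) were assembled only in the 6 stimulated libraries. These shares were 11.1% and 56.8% for the 2051 intergenic loci and 2.25% and 8.81% over all merged loci, so they lie near those of the intergenic loci. Of the intergenic loci 35.9% were assembled in the unstimulated library, 23.2% to 40.7% at 8 h and 26.8% to 34.4% at 30 h, where the antisense loci had 46.8%, 35.5% to 38.4% and 29.6% to 31.5%. Over all merged loci the shares were 44.9% unstimulated, 41.9% to 44.5% at 8 h and 43.2% to 43.7% at 30 h.

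A missing transcript did not always mean that nothing was assembled over the bases. Among the 913 gaps, each 1 locus in 1 library, assembled pieces without a strand covered at least 50% of the exons in 11.8%, sense-strand transcripts did so in 9.97%, and 21.2% were covered by pieces of some kind. The reverse also occurred: of 508 cases in which a locus was assembled, a sense-strand transcript of the same library covered at least 50% of the same bases in 84 (16.5%). That share was 22.9% for loci with a GENCODE intron, 18.4% for other spliced loci and 8.84% for single exons.

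The levels were low. The median FPKM of the loci assembled in a library lay between 2.14 and 4.12, and 54 of 203 loci reached 5 FPKM in any library. The median ratio of antisense to sense FPKM within a library was 0.17 to 0.34. At some point 33 loci stood above their sense gene, 16 of them with intervals apart, and these 16 comprised 11 loci with a GENCODE intron, 5 with other introns and 0 single exons. The sense gene was missing beside an assembled antisense locus in at least 1 library for 38 loci. Examples were Slc36a3os (chr11:55131384-55140215, plus strand), assembled in 6 libraries at 4.35 to 9.72 FPKM opposite the amino acid transporter gene Slc36a3, and Tmem147os, at 5.06 to 9.02 FPKM in all 7 opposite the sperm glycolytic gene Gapdhs. Neither sense gene was assembled in any library. The RefSeq span of Slc36a3os held 41.2% of the exon bases of its locus.

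**Figure D2:**
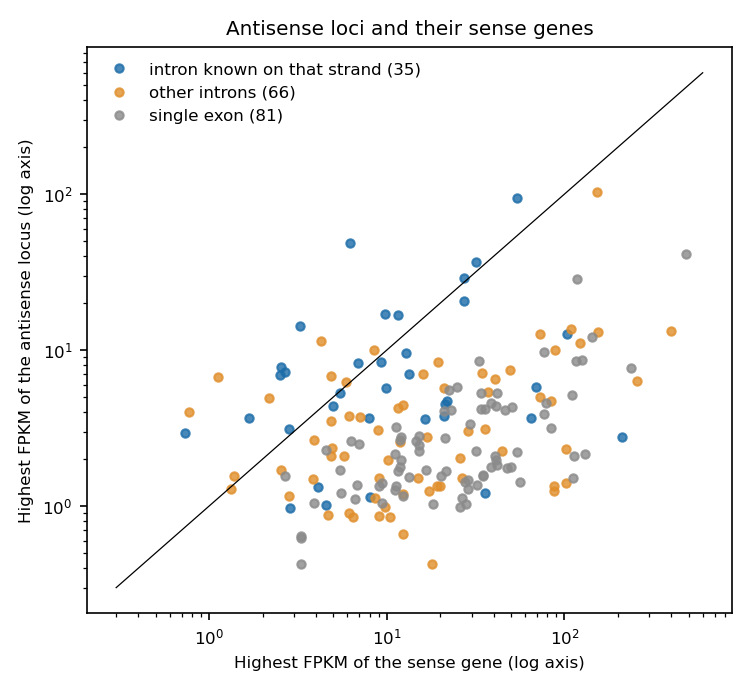
Highest FPKM of each antisense locus (vertical log axis) against the highest FPKM of its sense gene (horizontal log axis) for the 182 loci with both assembled, coloured by structure; the line marks equal values. Above the line lie 22 loci, of which 0 are single exons.

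Counting differences over all loci gave small numbers. Comparing a locus needed an assembled transcript in each library and 1 FPKM or more in 1 of them, and it was counted where log2(FPKM + 1) moved by 1 or more with separate intervals. For anti-IgM at 8 h against unstimulated, 44 loci were compared, 1 higher and 7 lower, where over all merged loci 10.6% were higher and 10.7% lower. For BAFF at 8 h, 42 were compared, 4 higher and 3 lower (5.67% and 4.13% over all loci). For both at 8 h, 39 were compared, 3 higher and 5 lower (12.3% and 8.96%).

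At 30 h anti-IgM gave 3 higher and 6 lower of 36 (8.29% and 7.34% over all loci), BAFF 3 higher and 3 lower of 42 (5.12% and 3.99%), and both 3 higher and 6 lower of 36 (8.21% and 7.89%). As shares of the loci compared, the lower counts came to 15.9%, 7.14% and 12.8% at 8 h and 16.7%, 7.14% and 16.7% at 30 h, and the higher counts to 2.27%, 9.52%, 7.69%, 8.33%, 7.14% and 8.33%. Median log2 differences of the antisense loci were -0.30, 0.27 and -0.08 at 8 h and -0.16, 0.11 and -0.20 at 30 h, while those of all loci lay between 0.01 and 0.12. Loci with only intergenic transcripts had medians of -0.33, 0.12 and -0.14 at 8 h and -0.25, -0.02 and -0.23 at 30 h. Of them 68 of 305, 15 of 371 and 44 of 256 were lower at 8 h. At 30 h 41 of 280, 16 of 376 and 44 of 288 were lower. Their higher counts were 18, 38 and 21 at 8 h and 19, 29 and 16 at 30 h. The lower counts are thus not particular to the antisense loci. The 6 comparisons share the unstimulated library.

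The most abundant antisense RNA ran away from the start of Vars, which encodes the valine tRNA synthetase. Its locus (chr17:34993675-35001006, minus strand, 6635 exon bases in 2 exons) had 67.9 FPKM unstimulated (66.5 to 69.3), 40.7, 70.9 and 55.9 after 8 h of anti-IgM, BAFF or both, and 104, 88.2 and 95.6 at 30 h. The values at 30 h were above the unstimulated value, and anti-IgM at 8 h was the lowest, but no difference from the unstimulated library reached 2-fold. The order depends on assembled length: spread over all exon bases of the locus (FPKM times the share of the exons that was assembled), the level was 64.7 unstimulated, 60.8 with anti-IgM and 60.7 with both at 30 h, and only the BAFF libraries, at 70.1 and 87.8, stood above it. Vars itself stayed between 105 and 152 FPKM. Only 100 bases of the locus lay in a Vars exon, and none was coding.

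GENCODE M21 has no gene on that strand there, but RefSeq places D17H6S56E-5, annotated as protein coding, at chr17:34996678-35000774 within the locus. The stretch between the RefSeq starts of D17H6S56E-5 and Vars, 132 bases that belong to neither gene, is shown because both genes point away from it (chr17:35000775-35000906, plus strand, RefSeq promoter windows, GRCm38.p6). Its label only names the genes on either side. The first base printed borders D17H6S56E-5 and the last borders Vars.
Vars to D17H6S56E-5: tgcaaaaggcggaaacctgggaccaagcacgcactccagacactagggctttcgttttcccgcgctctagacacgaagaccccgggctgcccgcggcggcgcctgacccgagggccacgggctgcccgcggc
With BAFF at 8 h and 30 h a transcript on the Vars strand covered 99.3% and 100% of the same exons at 49.4 and 15.8 FPKM. In the other 5 libraries no sense-strand transcript covered any of the locus.

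Cpsf2, a subunit of the complex that cleaves messenger RNA ends, starts beside Ndufb1-ps, a promoter-sharing noncoding gene in GENCODE. RefSeq places Ndufb1 there, annotated as protein coding (chr12:101968096-101975738, minus strand). The Ndufb1-ps locus (chr12:101968094-101976939, minus strand, 1020 exon bases) had 38.0 FPKM unstimulated, 39.2 for anti-IgM and 90.6 for BAFF at 8 h, and 94.4, 86.5 and 45.9 for anti-IgM, BAFF and both at 30 h. No transcript was assembled with both agents at 8 h. The 3 high libraries were those with a short assembled transcript: 572, 557 and 595 bases, against 983 to 1020 bases in the others. Spread over the whole locus, the level became 31.6 unstimulated and 39.2 to 51.6 in the 5 stimulated libraries, and no difference from the unstimulated library then reached 2-fold. Sense-strand transcripts covered 23.7% to 72.2% of its exons. Cpsf2 had 37.9 FPKM unstimulated and 10.7 to 54.0 with a stimulus.

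Opposite Hsd11b1, whose product regenerates active glucocorticoid, ran a plus-strand locus that shares introns with Lamb3, the gene of a laminin chain. Its exons share 0 bases with Hsd11b1 exons, and Hsd11b1 lies within the span of the locus (chr1:193207705-193281194). FPKM was 25.9 unstimulated, 14.5, 48.3 and 21.1 at 8 h, and 23.1, 29.1 and 5.59 at 30 h, in the order anti-IgM, BAFF and both. Both agents at 30 h were lowest (log2 difference -2.03 on FPKM + 1, -1.12 when spread over the locus). Of its 12 introns 4 are in GENCODE. A splice of 18146 bases outside GENCODE was seen in all 7 libraries.

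**Figure D3:**
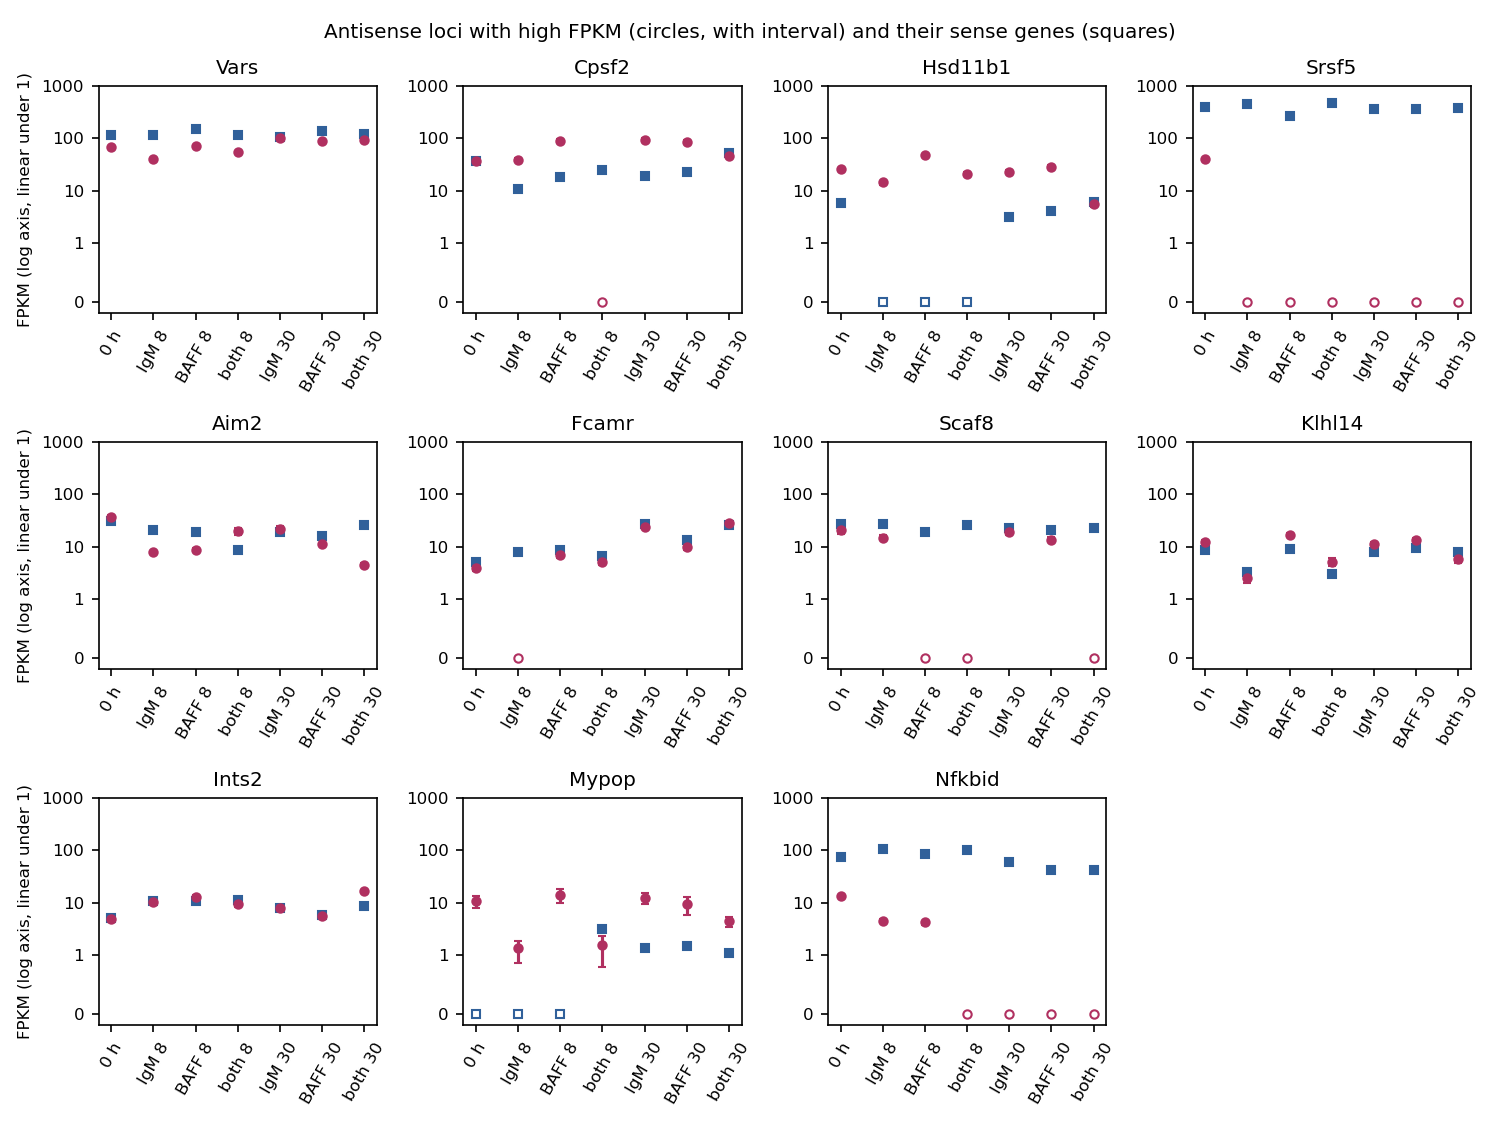
FPKM of 11 of the 12 antisense loci with the highest values (circles, with intervals of 2 standard deviations of counting error where they exceed the symbol) and of their sense genes (squares) in the 7 libraries; the axis is logarithmic above 1 and linear below. Open symbols at 0 mark libraries with no assembled transcript. Vars and Aim2 loci have a filled circle in every library, and the Srsf5 locus in the unstimulated library only.

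Over the 3' ends of sense genes lay loci that run toward them. The Aim2 locus (chr1:173465941-173491371, minus strand) is Ifi206, an interferon-inducible gene that ends into Aim2, the cytosolic DNA sensor, with 2852 of 5973 exon bases in Aim2 exons, none of them coding. FPKM was 36.5 unstimulated, 8.00, 8.77 and 20.1 after 8 h of anti-IgM, BAFF or both, and 22.2, 11.4 and 4.64 at 30 h. Intervals of all 6 stimulated libraries lay below the unstimulated one (32.2 to 40.9), and 4 of the 6 differences were past 2-fold on the log2(FPKM + 1) scale, by -1.60 to -2.73. Spread over the locus the range narrowed to 12.9 unstimulated and 4.50 to 11.3 with a stimulus, and only both agents at 30 h still passed (log2 difference -1.34). Aim2 had 31.8 FPKM unstimulated and 8.59 to 26.4 with a stimulus.

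Fcamr, an Fc receptor for IgA and IgM, was higher at 30 h and so was Gm15848, the antisense gene over its 3' end (chr1:130814643-130820722, minus strand). Gm15848 had 4.01 FPKM unstimulated, no transcript with anti-IgM, 6.95 with BAFF and 5.20 with both at 8 h, then 24.2, 9.83 and 28.8 at 30 h with anti-IgM, BAFF and both. Fcamr had 5.12 FPKM unstimulated, 8.00, 8.66 and 6.85 at 8 h and 27.4, 13.6 and 25.7 at 30 h. All 3 antisense differences at 30 h were counted (log2 differences 2.33, 1.11 and 2.57) and so were those of Fcamr. They held when spread over the locus (2.30, 1.26 and 2.54). In every library, sense-strand transcripts covered 99.1% to 100% of the antisense exons, although RefSeq exons of Fcamr share only 98 of 3866 bases, and reads of the 2 strands cannot be told apart there.

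Ints2, a subunit of the Integrator complex, faces Brip1os (chr11:86201249-86210780, plus strand). Brip1os had 5.03 FPKM unstimulated, 10.4, 13.2 and 9.37 after 8 h of anti-IgM, BAFF or both and 8.16, 5.56 and 16.9 at 30 h. BAFF at 8 h and both at 30 h were counted higher, by 1.24 and 1.57, and the first became 0.79, under the threshold, when spread over the locus. Sense-strand transcripts covered 4.04% to 94.4% of its exons. Ints2 had 5.14 FPKM unstimulated and 6.01 to 11.6 with a stimulus.

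Loci over the start of a sense gene included Klhl14, a BTB-Kelch gene of B cells, with the antisense gene 4930426D05Rik. The antisense RNA had 12.7 FPKM unstimulated, 2.53, 17.1 and 5.28 after 8 h of anti-IgM, BAFF or both and 11.2, 13.6 and 5.97 at 30 h. Klhl14 itself had 8.87 FPKM unstimulated, 3.38, 9.15 and 3.13 at 8 h and 7.98, 9.78 and 8.17 at 30 h. Both strands were thus lowest in the 2 libraries with anti-IgM at 8 h, alone or with BAFF, and all 4 of these differences were counted lower. The antisense values were also counted when spread over the locus (-1.97 and -1.58). Sense-strand transcripts covered 18.0% to 100% of the antisense exons, with 95.9% unstimulated. With anti-IgM alone and with both at 8 h they covered 49.3% and 18.0%. Reads of the 2 strands cannot be told apart there, so the 2 strands are not separate measurements.

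Mypopos (chr7:18992525-19001193, minus strand), inside Mypop, a Myb-related transcription factor gene, had 10.7 FPKM unstimulated, 1.38, 14.3 and 1.55 after 8 h of anti-IgM, BAFF or both and 12.6, 9.39 and 4.50 at 30 h. The 2 libraries with anti-IgM at 8 h were again the lowest, with intervals of 0.88 to 1.89 and 0.80 to 2.31 against 7.87 to 13.5 unstimulated. Both agents at 30 h were also counted lower (-1.09). With an overlap of 0.9 in place of 0.5 none of these 3 differences was counted: those at 8 h became -0.72 and -0.62, and that at 30 h changed sign (0.49). The assembled transcripts covered only 4.67% to 23.8% of the locus's 7091 exon bases, so the spread level was under 1 FPKM in every library and could not be compared. Mypop had at most 3.23 FPKM and was not assembled in 3 libraries.

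Scaf8, a gene for a factor that binds the tail of RNA polymerase, had Gm21926, a transcribed pseudogene, across its start (chr17:3111885-3115053, minus strand), at 20.6 FPKM unstimulated, 14.95 for anti-IgM at 8 h, and 19.2 for anti-IgM and 13.8 for BAFF at 30 h. No antisense transcript was assembled in the remaining libraries, where sense-strand transcripts covered 45.4% to 99.9% of its exons. Scaf8 stayed between 18.9 and 27.4 FPKM.

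Inside Srsf5, a splicing factor gene at 271 to 480 FPKM, a locus (chr12:80945702-80949814, minus strand) at 41.5 FPKM was assembled in the unstimulated library alone. It had no intron, and so no intron border to show its strand. In the other 6 libraries sense-strand transcripts covered 25.9% to 48.4% of its bases.

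Genes of B cell control with an antisense locus numbered 4 of the 170 listed (2.35%), beside 192 of all 23212 known genes of the merged set (0.827%), of which many were assembled in no library. Of the 46 genes listed for B cell identity and receptor signalling, Ccr7, Bach2 and Foxp1 had 4 loci between them, and of 37 genes for NF-kappaB, BAFF and survival only Nfkbid had 1. None was found for the 36 growth and immediate-early genes, the 30 of cell cycle and replication or the 21 of chromatin and RNA decay.

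Nfkbid encodes an atypical nuclear IkappaB protein. Its antisense locus (chr7:30421479-30428461, minus strand) had 13.7 FPKM (13.0 to 14.5) unstimulated and, at 8 h, 4.59 (4.27 to 4.90) for anti-IgM and 4.26 (3.88 to 4.63) for BAFF. It was not assembled with both agents at 8 h or in any library at 30 h. The intervals at 8 h were apart from the unstimulated one, and both differences were counted lower (-1.40 and -1.49). Nfkbid moved by less than 2-fold in those comparisons, from 74.0 FPKM to 109 and 86.5. Its 1 intron of 57 bases, outside GENCODE, began with GT and ended with AG on the antisense strand and was seen in 3 libraries. Sense-strand transcripts covered 90.3% of the locus in the unstimulated library and 24.0% to 27.4% in the others.

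Over the start of Ccr7, a chemokine receptor that guides lymphocytes into lymph nodes, a locus (chr11:99145939-99159574, plus strand) of 9485 exon bases and 3 introns had 13.2 FPKM in the unstimulated library and was not assembled in the other 6. Ccr7 had 114 FPKM unstimulated and 113 to 397 with a stimulus. Each of the 3 introns was seen in that 1 library only. In Bach2, a repressor of plasma cell differentiation, the 2 single-exon loci lay within the RefSeq span of Bach2os and had 1.59 and 1.56 FPKM, both in the library given both agents for 30 h. Inside Foxp1, a transcription factor gene, the locus had 1.41 FPKM with BAFF at 8 h and 1.03 with anti-IgM at 30 h.

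Other loci were counted in 1 or more of the comparisons with the unstimulated library. The locus over Fam149b overlaps Gm30054, whose RefSeq span held 7.70% of its exon bases. The locus had 9.61 FPKM unstimulated and 2.86, 6.48, 4.06, 2.19 and 1.87 in the stimulated libraries where it was assembled (all but anti-IgM at 30 h). It was counted lower in 4 of these. All 4 held when spread over the locus, with log2 differences of -1.30 to -2.22. Sense-strand transcripts covered 57.1% of the locus unstimulated and 8.41% (both at 8 h) to 91.6% (BAFF at 30 h) with a stimulus. Reads of the 2 strands cannot be told apart there. Fam149b had 12.8 FPKM unstimulated, its highest value, and as little as 4.23 with anti-IgM at 8 h.

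Hmgn3, a nucleosome-binding protein gene, and the locus of Gm2065 inside it were both counted higher in the 2 libraries with anti-IgM at 8 h. This locus, which has no GENCODE intron, had 1.43 FPKM unstimulated, 4.99, 2.96 and 4.42 after 8 h of anti-IgM, BAFF or both and 3.46 with both at 30 h. It was not assembled with either single agent at 30 h. Hmgn3 had 10.9 FPKM unstimulated, 38.1, 13.1 and 42.3 at 8 h and 32.9 to 72.4 at 30 h. The antisense differences held when spread over the locus (1.27 and 1.21), and at most 0.44% of its exons were covered by sense-strand transcripts.

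The locus of 2010007H06Rik, 18 introns across the predicted gene Gm684, had 5.93 FPKM unstimulated, 1.48, 11.5 and 5.69 after 8 h of anti-IgM, BAFF or both and 1.81, 8.40 and 7.17 at 30 h. Anti-IgM alone was the lowest at each time and BAFF the highest. Anti-IgM was counted lower than unstimulated at 8 h (-1.48) and 30 h (-1.30), and the second became -0.93, under the threshold, when spread over the locus. Gm684 stood below the locus in all 7 libraries. Sense-strand transcripts covered 0% (unstimulated) to 89.8% (BAFF at 8 h) of the locus. Inside Sav1, a Hippo pathway adaptor gene, a single exon over Gm19221 had 8.48 FPKM with BAFF at 8 h and 2.41 to 3.45 in the other libraries where it was assembled, 2.94 of them unstimulated. That difference was also counted when spread over the locus (1.40).

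Around the Fc receptor-like genes of B cells, values came from different pieces of a locus. Opposite Fcrl1 the level was 4.12 FPKM unstimulated and 7.22, 12.7 and 1.95 with anti-IgM, BAFF and both at 30 h. The transcripts covered 2.57% of its 13916 exon bases unstimulated and 97.8% (anti-IgM) and 99.6% (BAFF) at 30 h. With BAFF at 8 h a piece without strand covered 97.8% at 13.0 FPKM. Over the 3' end of Fcrl5 the locus had 5.29 FPKM unstimulated, 3.83 for anti-IgM and 1.03 for BAFF at 8 h, and 1.57, 6.49 and 2.08 at 30 h. Its 2 counted differences, -1.63 and -1.29, became -0.03 and -0.16 when spread over the locus.

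Smaller loci followed. Gm36266 opposite Fbxo24, an F-box gene, had 4.88 FPKM unstimulated and 0.77 after 30 h of anti-IgM, where sense-strand transcripts covered 80.6% and 81.6% of the locus. Gm6566 inside Gstz1, an enzyme gene of tyrosine breakdown, had 0.54 unstimulated and 3.64 with anti-IgM and also with both at 30 h. The Gm26510 locus, across Gm9320, had 2.30 unstimulated and 7.20 with both at 8 h. C230037L18Rik at Arsa, a lysosomal sulfatase gene, had 4.73 unstimulated and 1.33 with both at 8 h. Gm35065 at Prss12, a secreted protease gene, had 4.74 unstimulated and 1.78 with BAFF at 30 h. These levels are those of whole loci. RefSeq spans of Gm36266, Gm6566, Gm26510, C230037L18Rik and Gm35065 held 41.9%, 29.7%, 8.93%, 88.5% and 90.2% of the exon bases of their loci. A locus across Bhlhe41, a transcriptional repressor gene, had 0.80 unstimulated and 2.79 with both at 8 h, while Bhlhe41 went from 16.2 to 6.30 FPKM. Of these 6 loci, only the Fbxo24 one was still counted when spread over the locus (-1.11); the Gm9320 difference became 0.67 and the Prss12 one 0.023, and the others were under 1 FPKM in both libraries.

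The assembled length entered many of these values. When each level was spread over all exon bases of its locus, 24 of the 47 counted differences were still counted in the same direction, 13 fell under the threshold, 1 changed sign and 9 could no longer be compared because both values were under 1 FPKM.

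**Figure D4:**
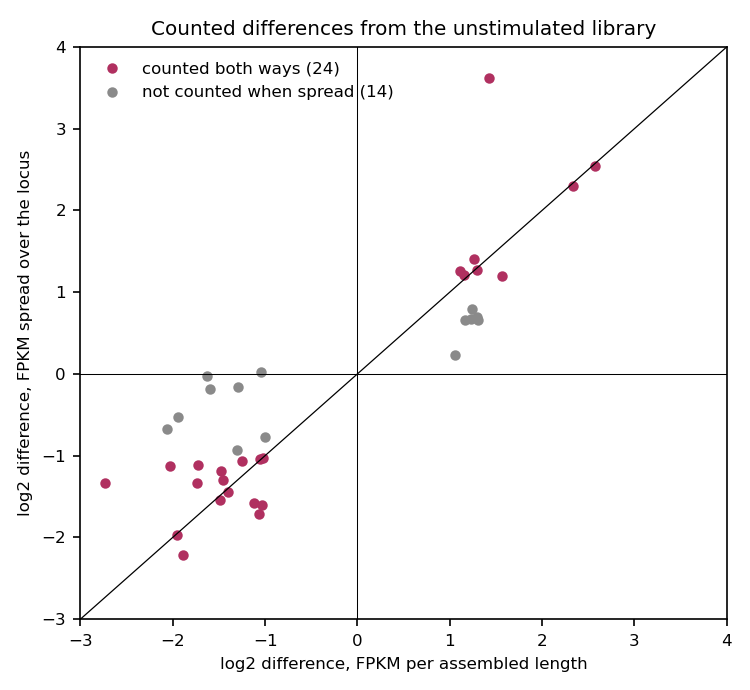
Log2 difference from the unstimulated library for the 38 counted differences with both measures, as FPKM per assembled length (horizontal) against FPKM spread over the whole locus (vertical); the diagonal marks equal values. Counted both ways are 24 points, and 14 points fall nearer 0 vertically and are not counted.

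The direction of the sense gene was followed beside each counted locus. In the 6 comparisons with the unstimulated library, the sense gene could be compared for 6, 7, 6, 8, 6 and 7 counted loci in the same order of libraries. It was counted the same way for 3, 0, 3, 2, 1 and 1, and the other way for 0, 1, 1, 0, 1 and 0. For 3, 6, 2, 6, 4 and 6 it was not counted. Same-way cases repeat loci: Fcamr was one in each comparison at 30 h. Klhl14 and Hmgn3 were such cases with anti-IgM and with both at 8 h. Where sense-strand transcripts cover the antisense exons, as at Fcamr and Klhl14, reads of the 2 strands cannot be told apart. The other-way cases were Psip1 with BAFF at 8 h (sense 69.4 to 16.2 FPKM, antisense 2.25 to 5.78, a difference not counted when spread over the locus), Bhlhe41 with both at 8 h (under 1 FPKM when spread), and Fcrl1 with BAFF at 30 h (sense 72.5 to 27.3 FPKM). After division by size factors the antisense differences of Psip1 (0.96) and Bhlhe41 (0.97) were under the threshold.

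The single agents were also compared with each other at each time. At 8 h 33 loci were compared and 10 were lower and 1 higher with anti-IgM (30.3% and 3.03%, against 8.61% and 4.8% over all merged loci). At 30 h 36 were compared, 6 lower and 2 higher (16.7% and 5.56%, against 4.85% and 3.91%). Median differences were -0.51 and -0.02, and over all loci -0.06 and 0.00. The loci opposite Klhl14, Gm684, Mypop and Hsd11b1 were among the lower ones at 8 h. Among loci with only intergenic transcripts, 77 of 411 were lower and 7 higher at 8 h. At 30 h 41 of 320 of them were lower and 13 higher. Their median differences were -0.45 at 8 h and -0.23 at 30 h. Spread over the locus, 5 of the 11 differences at 8 h and 2 of the 8 at 30 h were still counted. The libraries at 8 h were those with the highest and the lowest coverage per FPKM, and the part of depth in these counts was not tested.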

How the data were processed

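FPKM and its lower and upper bounds are as the authors deposited them, for transcripts that were assembled in each library separately. Per the submitters' processing notes the tools included CASAVA 1.8.2, TopHat2 2.0.5, Bowtie2 2.0.0.7 and Cufflinks 2.0.2, with build mm10. The deposited merged set gave exons, class codes and RefSeq names, and holds no levels. Strand handling is not given in the sources used here.

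A locus level was the summed FPKM of transcripts of at least 300 bases overlapping its exons on the same strand by 0.5 of the shorter. Bounds were read as 2 standard deviations of counting error. Sense genes are the RefSeq transcripts named beside the x transcripts. Where a locus is called by a GENCODE gene, that gene overlapped it on its strand, and the level given is that of the whole locus. Differences used a pseudocount of 1. The counting step was tested on simulated loci that had the same exons in both libraries. That test does not cover differences in assembled length or in strand.

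Members and gene lists were chosen with earlier results of these data known. Named were the 12 highest loci, the 3 largest counted differences each way in each of the 6 comparisons, and loci in the sense gene lists that were counted or at 5 FPKM. One of these loci is not reported here. Slc36a3, Gapdhs, Psip1, Bach2 and Foxp1 were named after their values were seen. Comparisons between anti-IgM and BAFF and the level spread over the locus were chosen after the data had been seen. The software was Python 3.11.15 with numpy 2.4.6 and matplotlib 3.10.9.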

Additional observations from a re-analysis of the deposited data

How the results depend on the processing

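No paired analysis was possible because each condition had 1 library. Of 162 recomputed counts 149 stayed within 1.5 times the main value. With a pseudocount of 0.1, anti-IgM at 8 h had 3 higher and 14 lower, and BAFF at 30 h 6 lower. With an overlap of 0.9, BAFF at 8 h had 2 higher. With loci of only class x, both at 8 h had 1 higher. With FPKM spread over the whole locus, added after seeing the data, anti-IgM at 8 h had 4 higher, BAFF at 8 h 1 lower, anti-IgM at 30 h 3 lower and BAFF at 30 h 1 lower. Kept to loci with an intron, also added later, 53 loci were assembled in the unstimulated library and 48, 49 and 43 with anti-IgM, BAFF and both at 8 h. Dividing by size factors, dropping the filter on low values, taking transcripts of any length and dropping the interval condition moved none of the counts beyond 1.5 times. Of the 47 counted differences, size factors ended those of the Psip1 locus with BAFF at 8 h (0.96) and the Bhlhe41 locus with both at 8 h (0.97), and an overlap of 0.9 ended those of the Mypop locus with anti-IgM (-0.72) and with both (-0.62) at 8 h. The difference of the Prss12 locus with BAFF at 30 h became 0.023 when spread, and that of the Mypop locus with both at 30 h became 0.49 with an overlap of 0.9. The causes were not tested, apart from the smaller number of loci under the restricted sets. Counting error alone was covered by the intervals, and a median of 67.7 to 165 fragments stood behind a locus's interval, depending on the library.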
